A study of Arabidopsis thaliana with 4 samples.

Results

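NAC transcription factor genes were examined for peaks of RVE5-MYC chromatin immunoprecipitation (ChIP-seq) in Arabidopsis thaliana seedlings. The family was taken by name: a protein-coding gene on the 5 nuclear chromosomes is a member when its symbol or a synonym is NAC or ANAC with 3 digits, in either case of letters. This gave 100 of 27444 genes, with 32, 8, 22, 10 and 28 on chromosomes 1 to 5. The genes described one by one were chosen by their peaks in the 3 replicate lists, so the position, pileup and fold of those peaks are given as a description and carry no test. A gene has a peak when any base of one lies inside it or within 1000 bp of either end.

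The seedlings overexpressed the MYB-like factor RVE5 with a MYC tag. They were 14 days old, had been raised at 22 °C in long days (16 h light, 8 h dark), spent 12 h at 29 °C, and were collected at zeitgeber time 12 h. All 4 samples share this genotype and treatment: 3 ChIP replicates with an antibody against MYC, and 1 input library without antibody, of which no list was used here. The sources used here do not state which promoter drove the transgene, or whether the replicates were separate pools of plants. With no untagged seedlings among the samples, antibody signal that does not depend on the tag cannot be told apart from RVE5-MYC signal. The design has 1 condition, and so no change of binding with temperature or time was measured.

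NAC proteins are a plant family of transcription factors that share a DNA-binding domain at the N terminus. Members act in drought and abscisic acid responses, in leaf senescence, at organ boundaries, in the thickening of xylem cell walls and in the response to DNA damage. Some are tethered to membranes and reach the nucleus when a signal releases them. RVE5 belongs to the REVEILLE relatives of the morning clock proteins, a group known to bind the evening element in promoters.

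Of the 100 NAC genes, 4 had a peak in all 3 replicates: NAC019, NAC052, NAC053 and NAC085. No NAC gene had a peak in exactly 2 replicates, and of all 27444 genes 420 had. The genes with a peak in 1 replicate were ANAC055 (replicate 1), NAC102 (replicate 2), and NAC050, NAC062 and XND1 (replicate 3). The other 91 had none.

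Set beside the background, the share over any replicate was close to that of all genes and the share over all 3 was higher. A peak in at least 1 replicate was found at 9 NAC genes (9%), against 7.6% of all protein-coding genes. The order of these shares turned with the flank: 3% of NAC genes and 3.775% of all genes with none, 6% and 6.24% with 500 bp, and 9% and 10.03% with 2000 bp. A peak in at least 2 was found at 4 NAC genes (4%), against 2.54% of all genes. A peak in all 3 was found at the same 4 (4%), against 1.01% of all genes. NAC052 and NAC053 share their peak, so these 4 genes stand for 3 places in the genome. Those are 3 of the 199 regions (1.51%) where merged peaks came from every replicate. No such share of regions was worked out for other genes, and the 1.01% counts genes, not places. No test was made of these shares. In the single lists, 5, 5 and 7 NAC genes had a peak in replicates 1, 2 and 3, against 3.19%, 3.86% and 4.1% of all genes. Of the 9 NAC genes with any peak, 44.4% had one in every replicate, 0% in exactly 2 and 55.6% in 1. Of the 2086 such genes among all genes, 13.2% had one in every replicate, 20.1% in exactly 2 and 66.6% in 1. The median span was 1940 bp for NAC genes and 2080 bp for all genes, so the windows searched were of similar length.

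**Figure D1:**
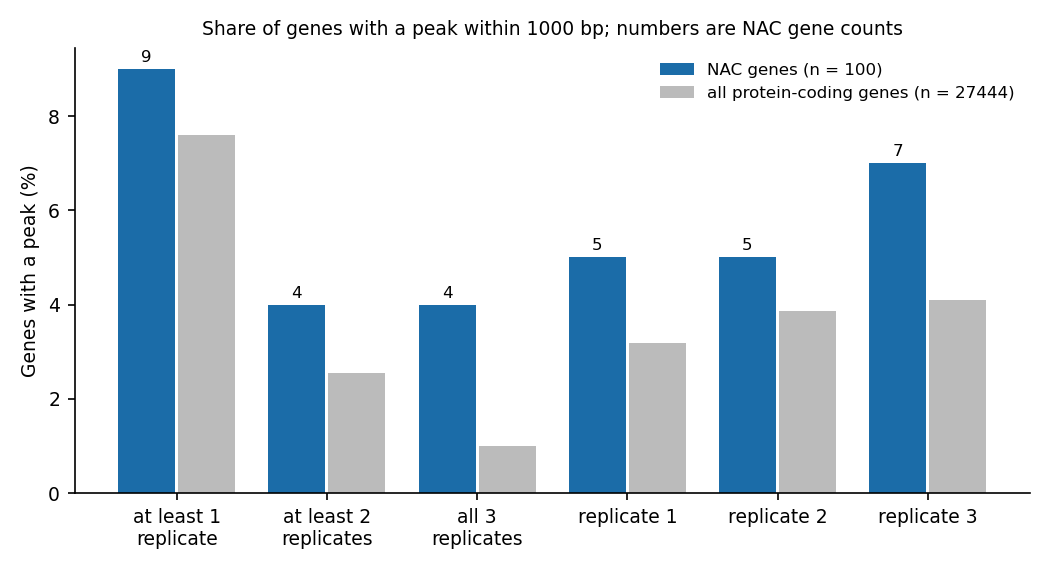
Percentage of genes with a peak within 1000 bp of their span, for the 100 NAC genes (blue) and all 27444 protein-coding genes (grey), by number of replicates and in each list; the numbers above blue bars are NAC gene counts. The bars for all 3 replicates stand at 4% and 1.01%, and those for at least 1 replicate at 9% and 7.6%.

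The stress-type NAC genes act in responses to drought, abscisic acid and jasmonate. Among them, NAC019 had the highest mean fold in the family, 3.53, against 3.38 at NAC085. In replicate 2 the order was reversed, with 2.62 at NAC019 and 3.45 at NAC085. In the list of 7 such genes, 3 had a peak: NAC019 in every replicate, ANAC055 and NAC102 in 1 each. The list, chosen with earlier results of these data known, is too short to read against the 7.6% of all genes with a peak. ATAF1, ATAF2, RD26 and NAC032 had none, and their nearest peaks lay 28.4, 75.2, 16.1 and 19.5 kb away.

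NAC019 (AT1G52890), a drought and abscisic acid responsive factor that also acts in jasmonate signalling, had its summits on chromosome 1 at 19699416, 19699385 and 19699387 in replicates 1, 2 and 3. The pileup at the summit, the height of stacked reads, was 59, 42 and 69. The fold over the local background was 3.89, 2.62 and 4.10, which is 3.53 ± 0.802 (SD, n = 3). Replicate 2 stood below the others: its peak ranked 313 of 827 by p-value in its own list, against 44 of 676 in replicate 1 and 37 of 864 in replicate 3. The pileups of the replicates are not on a common scale, since the library totals are unknown.

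The position at NAC019 was tighter than the height. The 3 summits fell within 31 bp, and 489 bp were common to the 3 peaks, from 19699131 to 19699619. The peaks were wide, at 731, 538 and 507 bp, against list medians of 302, 282 and 293 bp. Only protein-coding genes were looked at. All 3 peaks lay outside them, on the side of higher coordinates of NAC019, with summits 934, 903 and 905 bp from the gene span. NAC019 was the only protein-coding gene whose flank they reached. Its neighbour NAM (AT1G52880), another NAC gene, on the other side of NAC019, was 8.49 kb from this region and had no peak. By mean fold the region ranked 56 among the 199 found in every replicate, whose median was 3.0.

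ANAC055 (AT3G15500, listed under the symbol NAC3) is a close relative of NAC019 with which it acts in drought and jasmonate responses. It had a single peak, in replicate 1, with its summit at 5234030 on chromosome 3, a pileup of 38 and a fold of 2.28. The lists of replicates 2 and 3 held no summit within 63793 and 18628 bp of it. NAC102 (AT5G63790), a relative of ATAF1, had its peak in replicate 2 only, with the summit at 25528296 on chromosome 5, just 15 bp beyond the gene span, a pileup of 38 and a fold of 2.25. Replicate 1 had a peak nearby, but its summit at 25530549 was 2253 bp away and inside the next gene, MUM2. Both single peaks were below the median fold of their lists, 2.58 in replicate 1 and 2.53 in replicate 2.

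NAC085 (AT5G14490) is a relative of SOG1, the regulator of the plant DNA damage response, and acts with NAC044 to stop the cell cycle after damage. Its summits were on chromosome 5 at 4673142, 4673136 and 4673169, with pileups of 51, 61 and 66. The fold was 3.05, 3.45 and 3.64, which is 3.38 ± 0.300 (SD, n = 3). It ranked 108 of 676, 62 of 827 and 49 of 864 by p-value, and the SD of its fold was smaller than at NAC019. All 3 folds were above the median of their lists.

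The peaks at NAC085 were narrow, at 227, 256 and 283 bp, and had 218 bp in common, from 4673037 to 4673254. Their summits lay within 33 bp of each other and 184, 178 and 211 bp outside the span, on the side of higher coordinates. The flank of the next gene, AT5G14500, also reached them, but NAC085 was nearer to each summit. By mean fold the region ranked 67 of 199. The other members of the DNA damage list, SOG1 and NAC044, had no peak, and the nearest ones were 17.1 and 18.5 kb away. A list of 3 genes is too short to read against the 7.6% of all genes with a peak.

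NAC052 and NAC053 are neighbours on chromosome 3 and share 1 weak peak that was found in every list. NAC052 (AT3G10490) acts with the histone demethylase JMJ14 in gene repression. NAC053 (AT3G10500), also known as NTL4, is a membrane-tethered factor of drought responses and of proteasome gene expression. The summits were at 3271384, 3271335 and 3271219, with pileups of 36, 45 and 40 and folds of 2.46, 2.46 and 2.40, which is 2.44 ± 0.0359 (SD, n = 3). All 3 folds were below the median of their lists, 2.581, 2.526 and 2.501, and by mean fold the region ranked 181 of 199.

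The peaks at this pair spanned the short gap between the genes: each overlapped both spans, and 288 bp were common to them, from 3271170 to 3271457. Their summits were spread over 165 bp, more than at NAC019 or NAC085, and all 3 lay inside NAC053, at 182, 133 and 17 bp from NAC052. If a peak counts for the nearest gene only, NAC053 keeps it in every replicate and NAC052 in none. NAC052 and NAC053 are the only NAC genes with peaks that reach a gene body in more than 1 replicate.

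**Figure D2:**
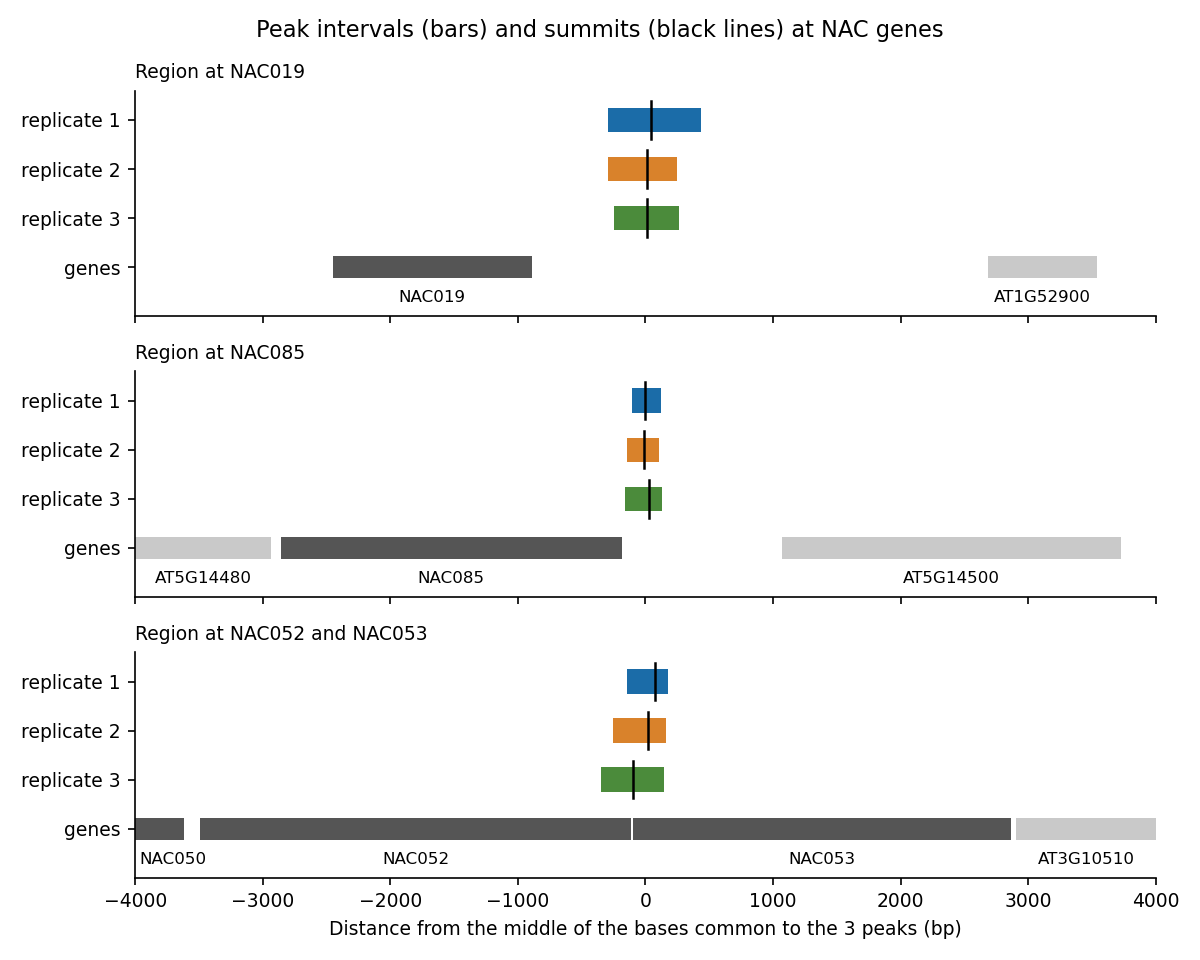
Peak intervals (coloured bars) and summits (black lines) of the 3 replicates at the NAC019, NAC085 and NAC052 with NAC053 regions, against distance in bp from the middle of the bases common to the 3 peaks; NAC genes are dark grey and other protein-coding genes light grey. The peaks at NAC019 and NAC085 lie beside the gene, with summits within 31 and 33 bp, and those at NAC052 and NAC053 cover the gap between the genes, with summits spread over 165 bp.

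NAC050 (AT3G10480), which acts with NAC052 and JMJ14, is the next gene on the other side of NAC052, so 3 NAC genes stand in a row here. Its own peak was a different one, in replicate 3 only, with the summit at 3262987, a pileup of 32 and a fold of 2.11. It ranked 818 of 864 by p-value in its list. The peak ended 999 bp from the span, and its summit was 1207 bp from NAC050 and 1133 bp from AT3G10470, so a slightly narrower flank would have left NAC050 out.

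Among 15 membrane-tethered NAC genes, NAC053 had a peak in every replicate, the one shared with NAC052, and NAC062 had one in 1 replicate. Of all genes, 7.6% had a peak in at least 1 replicate and 1.01% in all 3, and the list was not tested against these shares. NAC062 (AT3G49530), or NTL6, is released from membranes in the cold and acts in pathogen and protein-folding stress responses. Its peak was in replicate 3 with the summit at 18365278 on chromosome 3, a pileup of 37 and a fold of 2.32, and the flank of AT3G49540 reached it too. The other 13, NAC13, NAC017 and NAC089 among them, had no peak.

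Of 13 genes of secondary wall and vessel formation, 1 had a peak. This list too is too short to read against the 7.6% of all genes with a peak. XND1 (AT5G64530) represses the formation of xylem vessels. The peak was in replicate 3 with the summit at 25793914 on chromosome 5, a pileup of 46 and a fold of 2.88, the highest fold among the peaks found in 1 replicate. It ended 891 bp from the span, on the side of lower coordinates, and its summit was 1043 bp away. The wall master regulators NST1 and NAC012, and the vessel regulators VND1 and VND7, had none.

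The remaining lists are too short to read against the 7.6% of all genes with a peak in at least 1 replicate, and they held none: 0 of 7 leaf senescence regulators, 0 of 4 organ boundary genes, 0 of 4 root cap genes, 0 of 3 seed genes and 0 of 2 phloem genes, nor did LOV1, a regulator of flowering time. The nearest peak was 3.8 kb from NAP, 3.58 kb from NAC042 (JUB1) and 2.74 kb from NAC083 (VNI2), which all act in senescence. Of the 41 members in no list, 2 had peaks, NAC050 and NAC052, where 7.6% of all genes did. The lists held 59 of the 100 NAC genes.

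**Figure D3:**
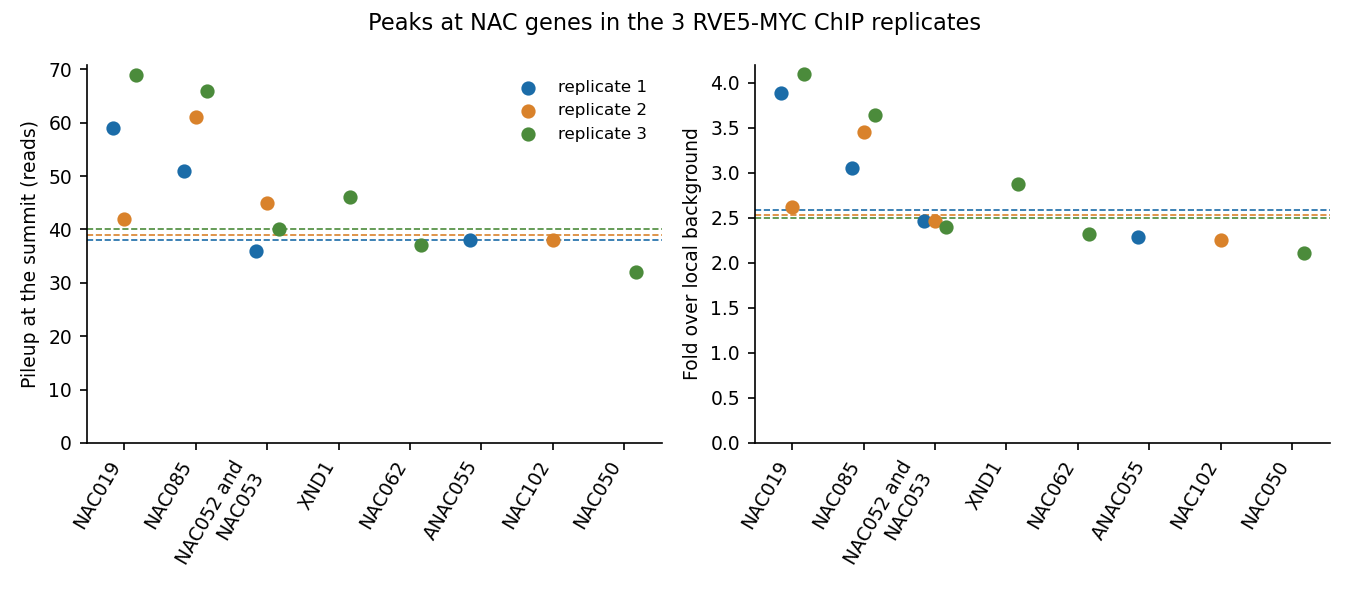
Pileup at the summit in reads (left) and fold over local background (right) for each peak at a NAC gene, coloured by replicate; dashed lines are the medians of each whole list. NAC019 and NAC085 lie above the medians in every replicate, with folds of 2.62 to 4.10 and 3.05 to 3.64, and the peaks found in 1 replicate lie near or below them except at XND1 (2.88).

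Read across the family, the 14 separate peaks at NAC genes made up 0.591% of the 2367 peaks in the 3 lists. Their pileups ran from 32 to 69 reads, and the medians of the whole lists were 38, 39 and 40 reads. In replicates 1, 2 and 3, 2 of 4, 2 of 4 and 3 of 6 of them were above the median fold of their list. Of the 14, 3 belong to each of the regions of NAC019, NAC085 and the NAC052 and NAC053 pair, and 1 to each of the other 5 genes. No peak at a NAC gene came near the highest fold of its list, 7.84, 8.31 and 8.21.

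The flank decided most of the members. With no flank, 6 of the 9 genes with a peak were lost, NAC019 and NAC085 among them, and with 500 bp NAC019, NAC050 and XND1 were lost. The peaks just inside 1000 bp were those of NAC050 at 999 bp, XND1 at 891 bp and NAC019 at 598 to 649 bp. The nearest ones outside were all in replicate 1. They lay 2166 bp from NAC102 (fold 2.42), 2426 bp from NAC074 (fold 2.35) and 2567 bp from CUC3, an organ boundary gene (fold 2.93). The summit of the first was inside MUM2. That of the last was nearer to AT1G76430 (2060 bp) than to CUC3 (2830 bp). In none of the lists did a peak lie between 999 and 2166 bp from a NAC gene.

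Over all 100 NAC genes, those with a peak included, the shares within 5 and 10 kb of a peak of any replicate were close to those of all genes. The median distance to the nearest peak of any replicate was 18.7 kb (quartiles 8.17 and 43.5 kb) for NAC genes and 22.7 kb (8.09 and 50.7 kb) for all genes. Within 5 kb of a peak were 17% of NAC genes, against 17.7% of all genes, and within 10 kb 30%, against 29.1%. Farther out the shares parted, with 59% against 49.6% within 22.3 kb, and at 71.2 kb they were 82% and 83.5%. For regions found in every replicate the shares differed more: 6% against 2.41% within 5 kb, and 9% against 4.17% within 10 kb. The 9 NAC genes within 10 kb stand near 6 distinct regions. The median distance to such a region was 181 kb for NAC genes and 198 kb for all genes. These distances are a description without a test.

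**Figure D4:**
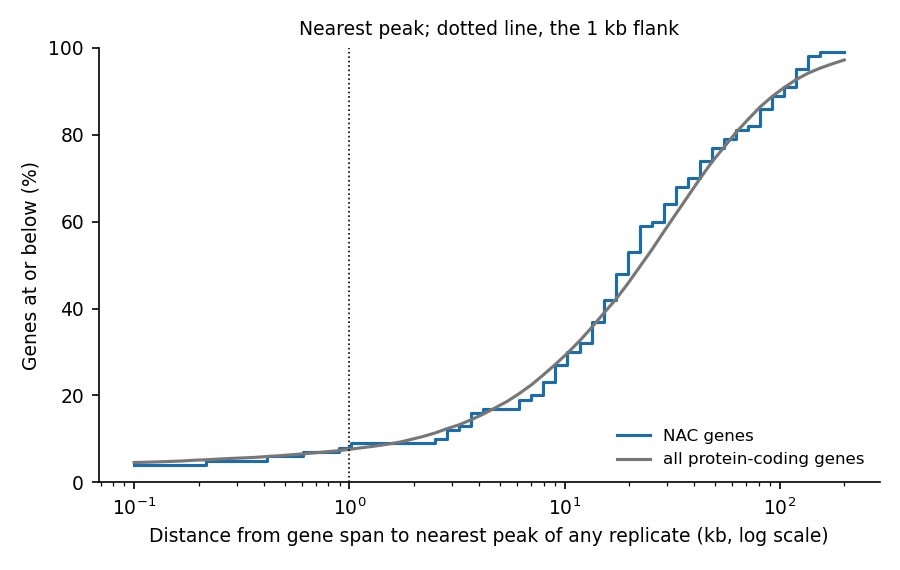
Cumulative percentage of genes against the distance from the gene span to the nearest peak of any replicate (kb, log scale), for NAC genes (blue) and all protein-coding genes (grey); the dotted line is the 1 kb flank. The curves run close together up to 10 kb, with 17% and 17.7% of genes at 5 kb and 30% and 29.1% at 10 kb. The NAC curve then lies higher, with 59% and 49.6% at 22.3 kb, and at 71.2 kb the values are 82% and 83.5%.

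Some NAC genes stand side by side. There were 11 pairs of NAC genes with no other protein-coding gene between them, 20 genes in all, and 4 of these pairs held a gene with a peak: NAM with NAC019, NAC050 with NAC052, NAC052 with NAC053, and ANAC055 with ANAC056. In the first and the last pair 1 gene had the peak and its neighbour had none. The pairs of NAC050 with NAC052 and of NAC052 with NAC053 both hold NAC052, so they are not separate cases. No share over all pairs of neighbouring genes was worked out, so the count of pairs is a description only. Neighbours of similar sequence can share reads, and the sources used here do not state what was done with reads that match several places.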

How the data were processed

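The authors deposited 3 peak lists, 1 per ChIP replicate; the column names are those of MACS2, but no header names a caller. The submitters' processing notes name the build TAIR10 and the tool CASAVA 1.4. The sources used here do not state the aligner, the caller, its threshold or the part played by the input. The lists as deposited give, for each peak, position and other coordinates in bp, the signal (pileup at the summit), the fold over a local background, and the −log10 of a p-value and of a q-value; these are the authors' own values within 1 list. Library totals are unknown. At the median pileup of replicate 1, 38 reads, exact 95% Poisson limits are 26.9 and 52.2 (SciPy 1.17.1), and they cover counting error only. These limits take the pileup as an unscaled count of reads, which the sources used here do not state. No 2 lists held a peak with the same start and end.

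Gene names and spans came from RefSeq genes on TAIR10.1, and no gene coordinates are printed. That the TAIR10 peak positions match these spans base for base was not checked here, and every distance between a peak and a gene rests on it. The table gives no strand, so sides are given by coordinate. A symbol borne by several members was replaced by the ANAC name. Overlap needed 1 bp. The overlap step was checked on simulated peaks. The planned motif counts in promoters were not run, as no sequence was used here.

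Members, role lists and settings were chosen with earlier results of these data known. NAC genes with peaks in 2 or 3 replicates were to be described in full, those with 1 by summit and pileup, and list members by count. Alternatives changed the flank, the part of the peak counted, the peak threshold, the gene counted, the agreement between replicates, the replicates and the naming rule.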

Additional observations from a re-analysis of the deposited data

How the results depend on the processing

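Over the 3 counts of NAC genes (4 in all 3 replicates, 4 in at least 2 and 9 in at least 1), 30 of 40 alternatives stayed within 1.5 times the count. The 40 are not separate checks, since the counts share the same 4 genes. With 1 replicate left out, the counts for at least 2 and for all 3 are also the same by construction. With no flank, 2 genes remained in all 3 and in at least 2 replicates (NAC052 and NAC053) and 3 in at least 1. With only the 50% of peaks that had the best p-values in their list, 2 remained in all 3 and in at least 2 (NAC019 and NAC085) and 5 in at least 1. With peaks of a fold of at least 2.5, 2 remained in all 3 and in at least 2 (again NAC019 and NAC085) and 3 in at least 1. With summits within 100 bp, 2 remained in all 3 (NAC019 and NAC085). No NAC gene was therefore counted in all 3 replicates under every one of these settings. The share of all genes in all 3 replicates was 0.492% with no flank, 0.685% with the best 50%, 0.623% with the fold minimum and 0.605% with summits within 100 bp. In at least 2 replicates it was 1.18% with no flank, 1.43% with the best 50% and 1.41% with the fold minimum. In at least 1 it was 3.77% with the best 50%. For at least 1 replicate the shares of NAC genes and of all genes were 9% and 7.6%. They lay the other way round with no flank (3% and 3.775%), 500 bp (6% and 6.24%) and 2000 bp (9% and 10.03%). The same held with the fold minimum (3% and 4.02%). It also held when the summit had to lie in the span with its flank (7 of 100 NAC genes and 7.22%). With 1 replicate left out, there were 6 to 8 genes in at least 1, against 5.52% to 6.37% of all genes. There were 4 in both of the others, against 1.44% to 1.58% of all genes. Taking members by capital letters only, chosen after the data were seen, gave 98 genes and the same counts. Counting a peak for the nearest gene only also asked for a summit within 1000 bp. No paired analysis was possible because the lists cover a single group. Pileups near 39 reads and unknown totals limit what a missing peak means.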

Other observations

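Some NAC genes without a peak of their own in every replicate stood near a region that had one. Between 1 and 10 kb from such a region lay 5 NAC genes (5%), against 3.18% of all genes. For NAM and NAC050 this was the region of a neighbouring NAC gene, described above. NAC045, a gene of phloem sieve elements, was 2997 bp from a region on chromosome 3 with summits at 731718, 731772 and 731802, pileups of 50, 51 and 60 and folds of 2.83, 2.78 and 3.07 in replicates 1, 2 and 3. The nearest protein-coding gene to those summits was AT3G03170. VND1, a vessel regulator, was 5.71 kb from a region on chromosome 2 with summits at 7842113, 7842119 and 7842074, pileups of 47, 37 and 43 and folds of 3.28, 2.45 and 2.73, all inside AT2G18040 (listed as PIN1AT). NAC102 was 7.72 kb from a region on chromosome 5 with summits at 25536069, 25536111 and 25536174, pileups of 35, 43 and 39 and folds of 2.53, 2.75 and 2.41, whose nearest gene was MUM2. NTL9, a calmodulin-binding NAC protein gene that the naming rule leaves out, had no peak, the nearest being 49.5 kb away.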
